A study of Schizosaccharomyces pombe with 6 samples.

Results

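The 26S proteasome is the protease that degrades ubiquitin-tagged proteins in eukaryotic cells. Its genes were followed here in Schizosaccharomyces pombe, the fission yeast, at day 6 of chronological ageing, when cells have stopped dividing. Members were the rows of the count table whose gene has one of the standard proteasome names, that is rpn, rpt, pre or pup with digits, or pts1, scl1, pam1, pad1, mts2, mts3, mts4 or pus1. This gave 35 of 6952 genes, of which 34 were annotated as proteasome subunits. The remaining gene, pus1 (SPCC126.03), is annotated as a pseudouridine synthase that modifies tRNA and U2 snRNA, and it is described apart.

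The study compared 2 groups of 3 cultures, both in the 972h-/leu1-32 background and both grown in EMMG minimal medium. In aal1-pOE cells, a plasmid supplied excess aal1, a long non-coding RNA, under P41nmt1, a promoter that thiamine represses, and evc cells carried the empty vector. A plasmid can vary in copy number between cells, and the libraries average over each culture. RNA was sequenced with strand information, and the labels call the replicates biological.

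Protein degradation by the proteasome begins with a chain of ubiquitin, which receptors on the 19S regulatory particle bind. The lid of that particle removes the chain, and the ring of ATPases in its base unfolds the protein and feeds it into the 20S core. The core is a barrel of outer rings of alpha subunits, which form the gate, and inner rings of beta subunits, of which beta 1, beta 2 and beta 5 carry the active sites. In stationary-phase yeast, proteasomes are known to leave the nucleus and to be stored in cytoplasmic granules. The mRNA levels described here say nothing about the assembly, location or activity of the particle.

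Library totals ran from 5839863 to 13164975 counts. The overexpressed aal1 had 54, 141 and 58 counts in replicates 1, 2 and 3 of aal1-pOE, against 4, 2 and 4 counts in evc, in the direction the labels give. A non-coding gene annotated on the opposite strand of the same place, SPNCRNA.401, had 105, 239 and 103 counts against 7, 3 and 3. Its log2 fold change was 3.88, beside 3.39 for aal1, so counts were higher on both strands there. Levels below are in CPM, counts per 1000000, after TMM scaling, which sets libraries to a common level for most genes. The choice of scaling matters here. The 142 cytosolic ribosomal protein genes took 2.86% to 3.94% of all counts in the aal1-pOE libraries, against 6.97%, 11.5% and 11.7% in evc replicates 1, 2 and 3. With TMM factors computed without those genes, the median log2 fold change of the members was 0.13, against 0.15 with them. The cause of the difference between scalings was not tested. With library totals in place of TMM, the median log2 fold change of all 5823 tested genes moved up by 0.72, from 0.08 to 0.80. Changes below are therefore relative to most other genes, not to total RNA. The library of aal1-pOE replicate 2 stood apart, with a TMM factor of 1.80 against 0.763 to 1.07 in the other libraries, and members whose value changed most without it are given both ways. Whether the cells held more or less mRNA in all cannot be read from these counts.

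2 pairs of genes need their sequences shown before their values are read. The genes rpn501 and rpn502 both encode Rpn5, a scaffold subunit of the lid. Over 1332 coding bases the copies differed at 2, and the 4 stretches below hold those sites, with the differing base in capitals (ASM294v3, written 5′ to 3′ on the coding strand).
rpn501, chrI:1267278-1267307, plus strand: ttttgctgaaaatgaTgaaaaaggtgagaa
rpn502, chrI:4909837-4909866, minus strand: ttttgctgaaaatgaCgaaaaaggtgagaa
rpn501, chrI:1267431-1267460, plus strand: acaatttctttgcgaTcttattgcaaagca
rpn502, chrI:4909684-4909713, minus strand: acaatttctttgcgaCcttattgcaaagca
Of all 33-base stretches in the exons, 33 bases being the read length left after clipping, 93.2% occurred more than once in the genome for each copy. Reads that align to more than 1 place are dropped by the counting tool unless it is told otherwise, so the counts of both copies are uncertain.

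The genes rpn1301 and rpn1302 both encode Rpn13, a ubiquitin receptor of the base, but they are diverged. Their longest identical run of exon sequence was 14 bases, shown in capitals within the coding stretches below, and none of their 33-base stretches occurred elsewhere in the genome.
rpn1301, chrII:4208660-4208689, plus strand: atagcctaTTTTACTGGATGCAagaagcct
rpn1302, chrIII:898509-898538, minus strand: agattcatTTTTACTGGATGCAggagtata
Reads of these genes can therefore be told apart. The same held for all other members, for which 0% of such stretches were repeated.

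Most proteasome subunit genes were not called, and the calls that were made went in both directions. Among the 35 members, all of which passed the filter on low counts, rpn3 rose and rpn1301 fell in aal1-pOE by the quasi-likelihood test of edgeR, with p-values adjusted by Benjamini-Hochberg over all tested genes. These 2 calls compare with 5.99% of all tested genes called, 1.36% higher and 4.64% lower. The median log2 fold change of the members was 0.15, against 0.08 for all tested genes, with 18 above 0 and 17 below, and it was 0.05 over the 34 annotated subunits. The levels of aal1-pOE and evc did not overlap for 15 members (42.9%), 9 higher and 6 lower, against 37.4% of all tested genes, 18.4% higher and 19.1% lower. An unadjusted p under 0.05 was found for 9 members, against 27.2% of all tested genes.

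These numbers followed the libraries used. Without aal1-pOE replicate 2, 7 members were called (6 higher, 1 lower), among them scl1, pam1, pup3, rpn8 and rpn1302 as new rises, beside 13.5% of all genes. With evc replicate 1 also left out, 12 members were called (8 higher, 4 lower), beside 39.5% of all genes. Without aal1-pOE replicate 1 or 3, or evc replicate 2 or 3, edgeR called 0 members, beside 2.84%, 8.26%, 1.42% and 1.51% of all genes. In those fits 7, 7, 4 and 4 members had an unadjusted p under 0.05. The share of all genes at that unadjusted threshold was not computed for them, so these counts have no background. Without evc replicate 1 the calls were again rpn3 and rpn1301, beside 7.28%. DESeq2 called 3 members beside 15.5% of all genes, limma-voom 1 beside 4.36%, and edgeR with library totals 6, all higher, beside 8.88% of all genes called higher.

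**Figure D1:**
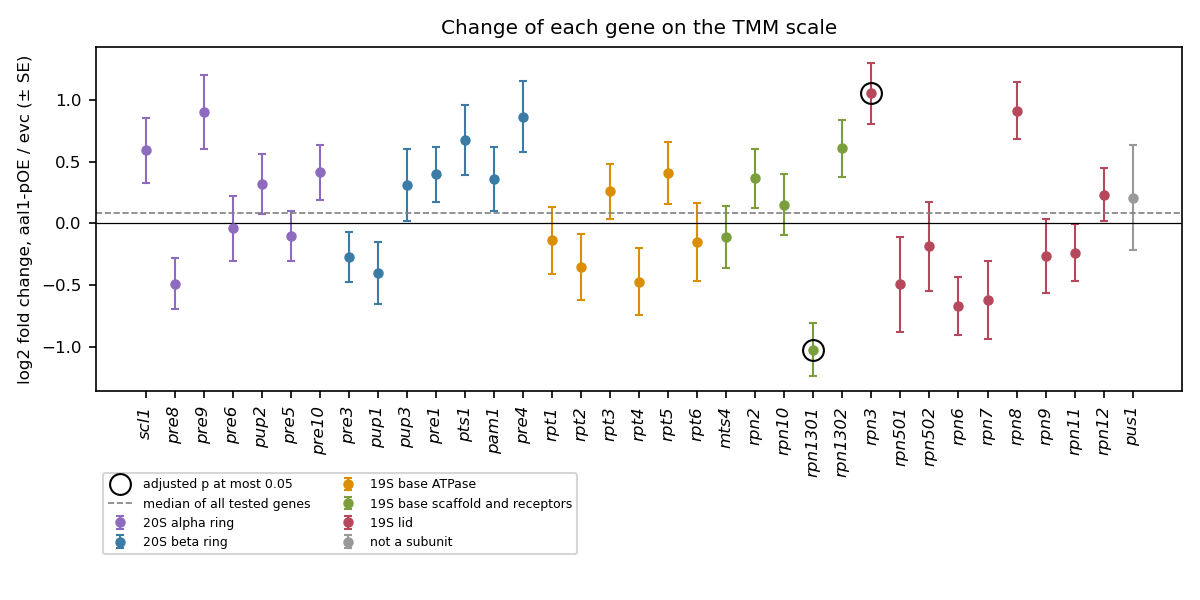
Log2 fold change of aal1-pOE over evc for the 35 members, in the order of the sub-complexes (colours), with 3 libraries a group and bars showing 1 standard error. The circled genes are rpn3 at 1.05 and rpn1301 at -1.02, and the dashed line is the median of all tested genes, 0.08.

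The alpha ring of the core showed 0 called genes among 7 by edgeR, with 2 at an unadjusted p under 0.05. It held the member with the highest log2 fold change outside the lid, pre9, which encodes alpha 3, the alpha subunit that budding yeast can live without. The level of pre9 was 31.1, 50.8 and 27.4 CPM in replicates 1, 2 and 3 of aal1-pOE, against 18.9, 18.2 and 21.5 CPM in evc. The groups did not overlap, with replicate 2 well above the other aal1-pOE libraries, and the log2 fold change was 0.90 ± 0.30 (SE, edgeR adjusted p = 0.0967). Without aal1-pOE replicate 2 it was 0.60. The gene of alpha 2, pre8, stood in the opposite direction, at 64.0, 63.5 and 64.3 CPM in aal1-pOE, against 78.4, 108 and 82.9 CPM in evc, and the log2 fold change was -0.49 ± 0.21 (SE, edgeR adjusted p = 0.165). The other alpha genes lay between -0.11 for pre5 (alpha 6) and 0.59 for scl1 (alpha 1), with pre6 (alpha 4) at -0.04, pup2 (alpha 5) at 0.32 and pre10 (alpha 7) at 0.41. Without aal1-pOE replicate 2, pre6, pup2 and pre10 were at -0.26, 0.54 and 0.25, and scl1 was at 0.80 (edgeR adjusted p = 0.0350).

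The beta ring likewise had 0 called genes among 7, with 2 at an unadjusted p under 0.05. The genes of its active sites had values of both signs. For pts1, which encodes beta 5 with the chymotrypsin-like site, the level was 29.1, 40.2 and 23.2 CPM in aal1-pOE, against 17.5, 20.2 and 20.3 CPM in evc. The groups did not overlap, and the log2 fold change was 0.68 ± 0.29 (SE, edgeR adjusted p = 0.167). Without aal1-pOE replicate 2 the pts1 value was 0.46. For pup1, which encodes beta 2 with the trypsin-like site, the level was 93.6, 53.0 and 89.8 CPM against 95.0, 105 and 112 CPM. The groups did not overlap, though aal1-pOE replicates 1 and 3 lay close to evc, and the log2 fold change was -0.40 ± 0.25 (SE, edgeR adjusted p = 0.317). It was -0.16 without aal1-pOE replicate 2. The gene of beta 1, pre3, which carries the caspase-like site, was at -0.28. Among the beta subunits without an active site, pre4 (beta 7) had the highest value, 0.86 ± 0.29 (SE, edgeR adjusted p = 0.100). Its level was 30.2, 40.9 and 29.5 CPM in aal1-pOE, against 15.0, 23.8 and 16.7 CPM in evc, and the groups did not overlap. The log2 fold change of pre4 was 0.71 without aal1-pOE replicate 2. The genes pre1 (beta 4), pam1 (beta 6) and pup3 (beta 3) lay at 0.40, 0.36 and 0.31, and at 0.38, 0.59 and 0.60 without aal1-pOE replicate 2.

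The ATPase ring of the base, which unfolds substrates, had 6 genes and no call by edgeR, and 0 at an unadjusted p under 0.05. Their log2 fold changes ran from -0.47 for rpt4 to 0.41 for rpt5. The level of rpt4 was 182, 100 and 185 CPM in aal1-pOE, against 208, 223 and 217 CPM in evc. All aal1-pOE libraries were below all evc libraries, and replicate 2 was the lowest by far. The log2 fold change of rpt4 was -0.22 without that replicate. For rpt2, rpt6 and rpt1 the values were -0.35, -0.15 and -0.14, and without aal1-pOE replicate 2 they were -0.12, 0.16 and 0.12. The gene rpt3 was at 0.26, and without that replicate rpt3 and rpt5 were at 0.13 and 0.18. Per length, rpt3 and rpt5, the pair with positive values over all 6 libraries, were the least abundant of the ATPase genes in evc, and rpt2 and rpt4 the most abundant.

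The remaining base genes encode scaffolds and ubiquitin receptors, and this group held the fall of rpn1301. The level of rpn1301 (SPBC342.04, chromosome II, 4208263 to 4209901, plus strand) was 82.0, 85.6 and 77.1 CPM in aal1-pOE, against 136, 186 and 176 CPM in evc. All 3 aal1-pOE libraries, replicate 2 included, lay close together and below every evc library. The log2 fold change was -1.02 ± 0.21 (SE, edgeR adjusted p = 0.0225), a level of 0.492 times that in evc. Whether the call held depended on which library was left out. It was lost in edgeR with adjusted p = 0.0807 and 0.0549 in the absence of aal1-pOE replicates 1 and 3, and 0.151 and 0.144 in the absence of evc replicates 2 and 3. The call held without evc replicate 1 and without aal1-pOE replicate 2, where the log2 fold change was -1.04 (adjusted p = 0.0116, edgeR). With library totals the log2 fold change was -0.29 (adjusted p = 0.432, edgeR).

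Its paralog rpn1302 (SPCC16A11.16c, chromosome III, 897608 to 899219, minus strand) pointed the other way. The level of rpn1302 was 56.3, 42.4 and 66.5 CPM in aal1-pOE, against 35.6, 35.5 and 37.2 CPM in evc. The groups did not overlap, but the log2 fold change of 0.61 ± 0.23 (SE) was not called (adjusted p = 0.138, edgeR). Without aal1-pOE replicate 2 it was 0.78 with an adjusted p of 0.0203. The exons of rpn1302 are covered by annotation on the opposite strand over 100% of their length, as are those of pup2, pam1 and rpt5. Many other members are covered in part. The counts were made by strand, and how fully the strands were kept apart was not tested.

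A ratio of these genes within 1 library does not depend on scaling. The counts per kilobase of rpn1302 over rpn1301 were 0.807, 0.582 and 1.01 in aal1-pOE, against 0.308, 0.224 and 0.248 in evc. The means were 0.801 ± 0.216 (SD, n = 3) and 0.260 ± 0.0434 (SD, n = 3), which differ by 3.08-fold. The share of Rpn13 transcripts that came from rpn1302 was 44.7%, 36.8% and 50.3% in aal1-pOE, against 23.6%, 18.3% and 19.9% in evc. Their sum, in CPM per kilobase, was 95.4 ± 6.60 (SD, n = 3) in aal1-pOE and 136 ± 17.6 (SD, n = 3) in evc. The pair was picked after its values were seen, so no test is given. Such separation was common among subunit genes, since the ratios of 53.1% of all 561 pairs of them did not overlap between the groups. The share for pairs of other genes was not computed, so this is not read as a trait of the complex.

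**Figure D2:**
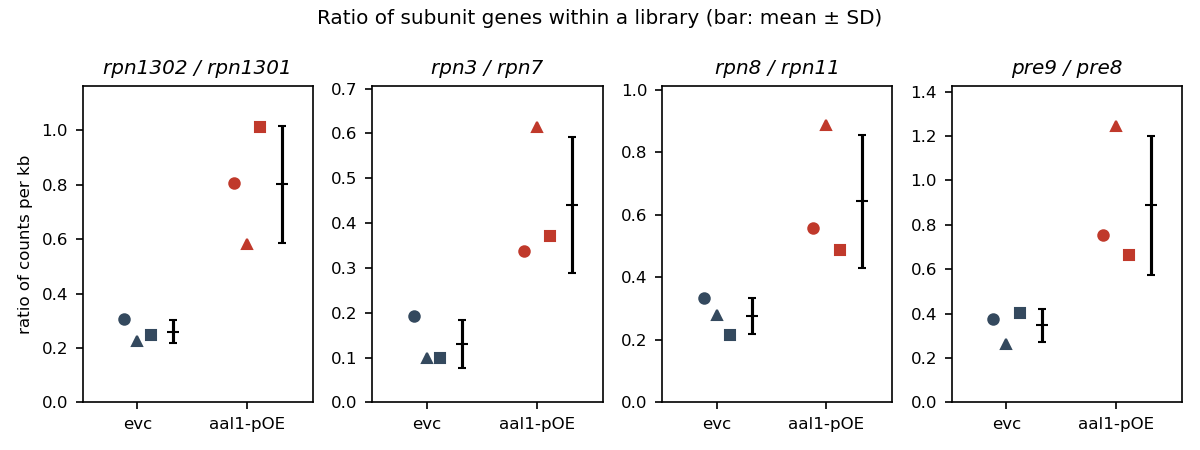
Ratio of counts per kilobase of 4 pairs of subunit genes within each library, with the mean and SD of each group of 3 and symbols for replicates 1 to 3. In each panel all aal1-pOE libraries lie above all evc libraries, for rpn1302 over rpn1301 at 0.582 to 1.01 against 0.224 to 0.308, and all 4 pairs were picked after their values were seen.

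The other genes of this group were not called. The receptor gene rpn10 was at 0.15. The genes of the scaffolds, mts4 for Rpn1 and rpn2 for Rpn2, which binds Rpn13, were at -0.11 and 0.36. Without aal1-pOE replicate 2, rpn10 was at 0.31, mts4 at 0.07 and rpn2 at 0.50.

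The lid held the rise of rpn3, a scaffold subunit. The level of rpn3 (SPBC119.01, chromosome II, 712490 to 714152, plus strand) was 91.6, 75.4 and 89.1 CPM in aal1-pOE, against 54.5, 36.6 and 32.0 CPM in evc. Every aal1-pOE library was above every evc library, of which replicate 1 was the highest. The log2 fold change was 1.05 ± 0.25 (SE, edgeR adjusted p = 0.0397), or 2.08-fold. Its direction held with every setting tried, at 0.91 to 1.72. The call was lost without aal1-pOE replicate 1 (adjusted p = 0.0944), aal1-pOE replicate 3 (0.0533), or without either of evc replicates 2 and 3 (0.200 and 0.199). It also missed the threshold with limma-voom (0.0556).

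The next highest log2 fold change within the lid was that of rpn8, just outside the threshold. Rpn8 pairs with Rpn11, the deubiquitinase that removes the chain. The level of rpn8 (SPCC1682.10, chromosome III, 390694 to 392092, plus strand) was 57.2, 55.7 and 47.0 CPM in aal1-pOE, against 32.7, 29.2 and 22.9 CPM in evc. The groups lay far apart, and the log2 fold change was 0.91 ± 0.23 (SE, edgeR adjusted p = 0.0505). It passed the threshold in 7 of 16 other settings. Among them were DESeq2 (adjusted p = 0.0146), which called 15.5% of all genes, and edgeR without aal1-pOE replicate 2 (adjusted p = 0.0305), which called 13.5%. The gene missed the threshold with limma-voom and when any other single library was left out. For rpn11 the level was 126, 77.1 and 118 CPM in aal1-pOE, against 120, 128 and 130 CPM in evc. Those groups overlapped, and its log2 fold change was -0.24 ± 0.23 (SE, edgeR adjusted p = 0.514), or -0.03 without aal1-pOE replicate 2. The counts per kilobase of rpn8 over rpn11 within a library were 0.643 ± 0.213 (SD, n = 3) in aal1-pOE and 0.276 ± 0.0585 (SD, n = 3) in evc. This pair was picked after its values were seen, as were rpn3 with rpn7 and pre9 with pre8 in the plot of ratios, and each sets a gene with a positive log2 fold change over one with a negative value. The measure listed in the design was instead the ratio of each subunit to the median of its sub-complex. By that ratio rpn8 stood at 0.724, 0.944 and 0.612 in aal1-pOE, against 0.697, 0.736 and 0.603 in evc. For rpn3 it was 1, 1.10 and 1 against 1, 0.795 and 0.725. Where rpn3 stands at 1 it is itself the median, and the lid list includes the uncertain Rpn5 copies. Nothing is therefore read from this ratio for any lid gene. In those libraries rpn3 is the divisor for rpn7 and rpn11 too, so the ratio of rpn7 is the inverse of the picked rpn3 over rpn7. The ratio of rpn11 was 1.30, 1.07 and 1.26 against 2.09, 2.63 and 2.79, and that of rpn7 was 2.97, 1.79 and 2.70 against 5.21, 8.07 and 7.29. In the alpha ring, pre9 stood at 0.623, 1 and 0.543 against 0.375, 0.416 and 0.507, and pre8 at 0.824, 0.802 and 0.817 against 1, 1.59 and 1.25. Where pre9 or pre8 stands at 1 it is itself the median, so nothing is read from the ratio for these genes either.

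Values in the opposite direction came from rpn6, whose product clamps the lid to the core, and rpn7. The level of rpn6 was 101, 64.1 and 101 CPM in aal1-pOE, against 134, 141 and 147 CPM in evc, with a log2 fold change of -0.67 ± 0.23 (SE, edgeR adjusted p = 0.112). The level of rpn7 was 237, 107 and 210 CPM in aal1-pOE, against 248, 324 and 281 CPM in evc, with a log2 fold change of -0.62 ± 0.32 (SE, edgeR adjusted p = 0.229). In both genes the aal1-pOE libraries lay below all evc libraries, with replicate 2 the lowest. Without it the values were -0.46 for rpn6 and -0.33 for rpn7. With library totals both were near 0, at -0.03 and -0.02. The genes rpn9 and rpn12 were at -0.27 and 0.23, and at 0.04 and 0.28 without aal1-pOE replicate 2.

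**Figure D3:**
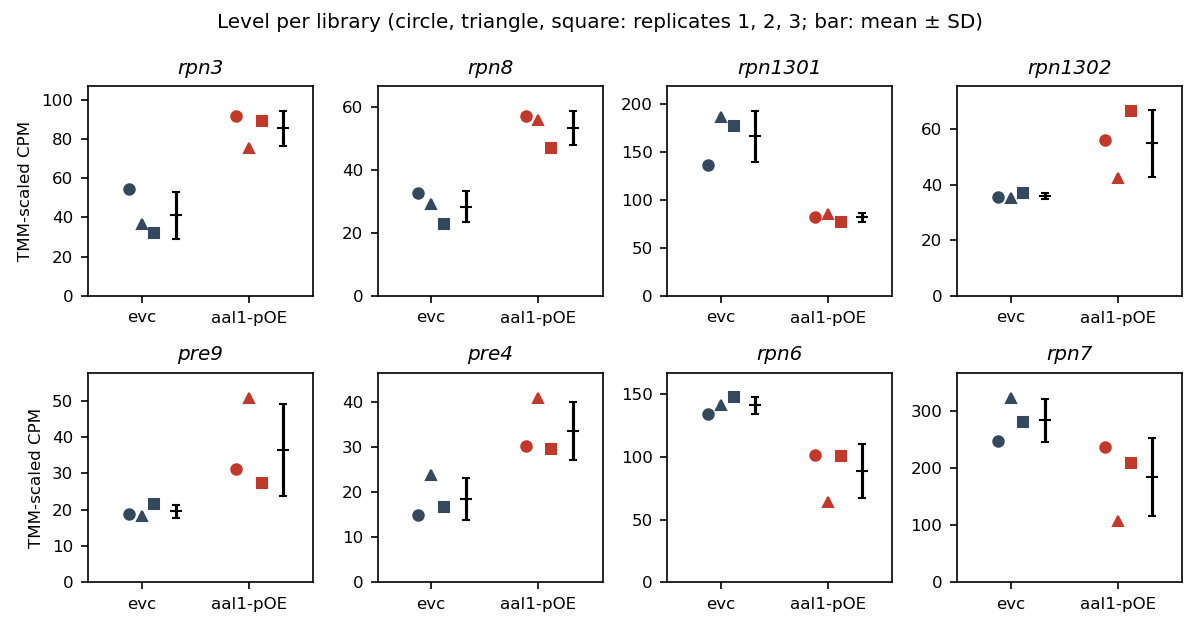
TMM-scaled CPM in each of the 6 libraries for the 8 subunit genes rpn3, rpn8, rpn1301, rpn1302, pre9, pre4, rpn6 and rpn7, with the mean and SD of each group of 3. The genes were picked with their values known, and all 8 are among the 15 of 35 members (42.9%) whose groups do not overlap. The share over all tested genes is 37.4%, so the separation in these panels is not read as a trait of the complex. In its group aal1-pOE replicate 2 (triangle) is the highest for pre9 and pre4 and the lowest for rpn6 and rpn7.

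For the Rpn5 copies, whose sequences are given above, 93.2% of the 33-base stretches of each were repeated, so the split between them is uncertain. There were 106, 158 and 54 counts for rpn501 in aal1-pOE, against 74, 46 and 71 in evc. For rpn502 there were 105, 261 and 61 counts against 74, 41 and 72. Their sum was 19.4 ± 2.53 CPM (SD, n = 3) in aal1-pOE and 24.4 ± 4.65 CPM (SD, n = 3) in evc, and the groups overlapped. Neither copy was called, at -0.49 ± 0.39 (SE, edgeR adjusted p = 0.408) and -0.19 ± 0.36 (SE, edgeR adjusted p = 0.747), or -0.30 and -0.20 without aal1-pOE replicate 2.

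By sub-complex, the median log2 fold change was 0.34 for the 14 core genes, -0.11 for the 11 base genes and -0.24 for the 9 lid genes, and none of these lists was tested. The order of the medians was the same without aal1-pOE replicate 2, at 0.42, 0.13 and -0.03. Within a library, the mean counts per kilobase of the core genes over those of the 19S genes, without the Rpn5 copies, were 0.557, 0.733 and 0.554 in aal1-pOE, against 0.487, 0.457 and 0.467 in evc. All 3 aal1-pOE libraries were higher, replicate 2 most. The core genes had the lowest mean level in evc, 39.0 TMM CPM per kilobase. The base had 85.3 and the lid 63.6. Over 32 subunit genes, the Spearman correlation of change with evc level came to -0.64, -0.93 and -0.61 for aal1-pOE replicates 1 to 3. Coding genes at large gave -0.47, -0.85 and -0.34 (n = 4911). Whether the sub-complexes differ beyond this relation to level was not tested. The summed level of all members was 2917 ± 501 CPM (SD, n = 3) in aal1-pOE and 3114 ± 33.8 CPM (SD, n = 3) in evc on the TMM scale. As a share of all counts the members took 0.352%, 0.421% and 0.324% in aal1-pOE, against 0.261%, 0.240% and 0.241% in evc, so that they were higher in aal1-pOE when set against total counts. The same held for most genes, since with library totals the median log2 fold change was 0.81 for members and 0.80 for all tested genes. The higher share is therefore not read as a rise of the proteasome.

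The range of levels among subunits was narrower in aal1-pOE. Over the 32 subunit genes without the Rpn5 copies, the most abundant gene per length stood 15.5, 17.1 and 15.7 times above the least abundant in evc replicates 1, 2 and 3. In aal1-pOE the ratio was 7.52, 3.04 and 7.94. In all evc libraries rpn7 was the highest and pre4 or pre9 the lowest. The SD of the log2 levels per kilobase was 1.05, 1.05 and 1.10 in evc and 0.85, 0.45 and 0.85 in aal1-pOE. A narrower spread was also seen over the 4911 coding genes tested (0.1 CPM per kilobase added before the log), at 2.44, 2.54 and 2.52 in evc and 2.19, 1.54 and 2.27 in aal1-pOE, so the narrowing is not called particular to the proteasome. It was narrowest in aal1-pOE replicate 2 and was also seen in replicates 1 and 3.

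**Figure D4:**
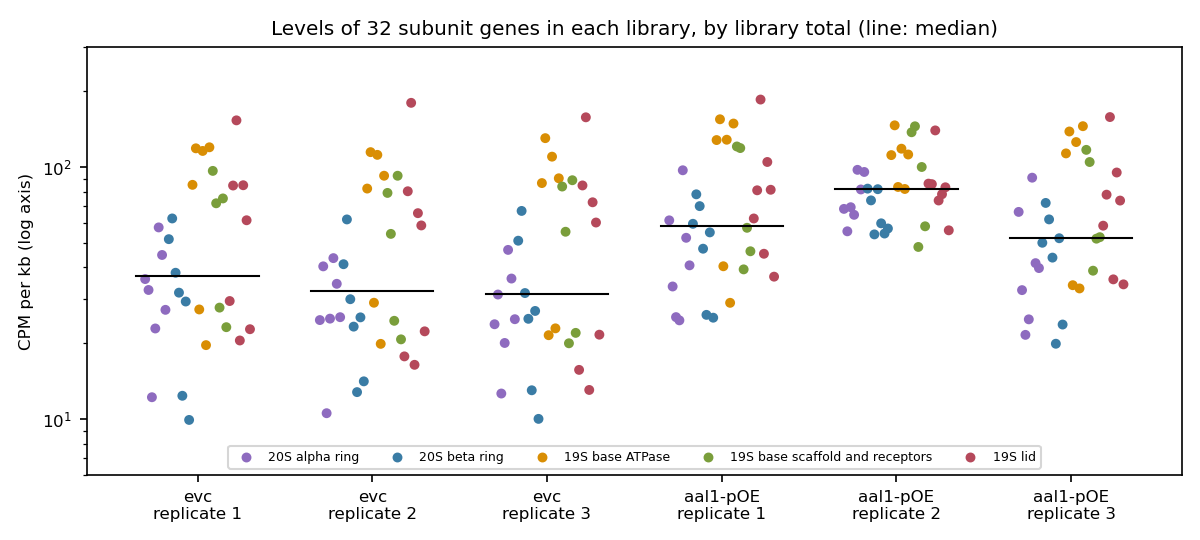
CPM per kilobase of exon (log axis, scaled by library totals) of 32 subunit genes in each library, coloured by sub-complex, with the median as a line. The highest gene is 15.5 to 17.1 times the lowest in evc, and in aal1-pOE it is 7.52 and 7.94 times the lowest for replicates 1 and 3 and 3.04 times for replicate 2.

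Beyond the members, 39 further genes of the ubiquitin and proteasome pathway were looked up, and by edgeR 0 rose and 3 fell, beside 1.36% and 4.64% of all tested genes. At an unadjusted p under 0.05, 2 were higher and 7 lower, 9 of 39, beside 27.2% of all tested genes. All 3 called genes were ubiquitin genes that also encode a ribosomal protein, ubi1 (L40 fusion), ubi3 and ubi5 (S31 fusions). The level of ubi5 was 67.0, 72.9 and 48.5 CPM in aal1-pOE, against 197, 411 and 375 CPM in evc, with a log2 fold change of -2.38 ± 0.33 (SE, edgeR adjusted p = 0.00651). The values of ubi1 and ubi3 were -1.81 (adjusted p = 0.0111) and -1.97 (adjusted p = 0.0130), beside a median of -2.25 for all ribosomal protein genes in the same test. The other L40 fusion gene, ubi2, was not called, at 211, 120 and 208 CPM in aal1-pOE, against 294, 382 and 348 CPM in evc, with a log2 fold change of -0.92 ± 0.28 (SE, edgeR adjusted p = 0.0804). The polyubiquitin gene ubi4, which encodes ubiquitin alone, was at 27.2, 29.6 and 31.5 CPM in aal1-pOE, against 47.2, 46.7 and 59.0 CPM in evc. Those groups did not overlap, and its log2 fold change was -0.79 ± 0.22 (SE, edgeR adjusted p = 0.0627). Of the 33-base stretches in the exons, 80.1% of those of ubi4 were repeated, none of them in another ubiquitin gene. The share was 32.1% for ubi3 and 21.3% for ubi5, all of it shared with another ubiquitin gene, so those counts are less certain than those of ubi1 (2.45%) and ubi2 (0.582%).

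The other lists had no call, and 4 of their genes had an unadjusted p under 0.05. In activation and conjugation, ubc4, which encodes an enzyme that passes ubiquitin on to substrates, was at -1.29 (adjusted p = 0.0627, edgeR) and ubc7, an enzyme of the degradation at the endoplasmic reticulum, at 0.95 (adjusted p = 0.157, edgeR). Among quality control ligases, rkr1 was at -0.73 and ubr11 at 0.52. Among Cdc48 and shuttle factors, dsk2, a carrier of ubiquitin-tagged proteins, was at 0.38 and npl4 at -0.61. The deubiquitinase gene ubp6 was at 0.64 and cut8, whose product tethers proteasomes at the nucleus, at 0.47. The last list took the 10 other genes whose annotated product names the proteasome, and its median was 0.24, with ump1, a chaperone of core assembly, at 0.51. It mixes assembly factors with cut8, the inhibitor-domain gene fub1, the regulator-family gene fub2, dss1 and SPCC18.17c. In the annotation dss1 is a proteasome receptor and ubiquitin ligase adaptor, and SPCC18.17c a regulatory subunit. The sub-complex lists above hold only genes that the naming rule gives, so subunits with other names are not in them.

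Promoters were searched because members of one complex often share control elements. The window ran from 250 bases before to 50 bases after the annotated gene start in ASM294v3, on both strands. The letters GGTGGCAAA, the proteasome element of Saccharomyces cerevisiae, were found in 0 of 34 subunit genes and in 0.0978% of 5112 coding genes. The letters CAGTCACA, the HomolD box of many fission yeast ribosomal protein genes, were found in 1 of 34 subunit genes, against 2.68% of coding genes and 63.4% of the 142 ribosomal protein genes. The exception was pre10, where they lie in reverse complement (capitals) and begin 49 bases before the start.
pre10, chrIII:990632-990661, plus strand: tatataacgagTGTGACTGttctacgctcc
This match is a description and not evidence of a site. The level of pre10 was 46.1, 64.8 and 46.7 CPM in aal1-pOE, against 38.8, 40.4 and 39.2 CPM in evc.

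The gene pus1, which shares its name with an older name of rpn10, had 91, 474 and 53 counts in the aal1-pOE libraries, against 71, 47 and 53 in evc. Replicate 2 of aal1-pOE stood far above the other libraries. The pus1 log2 fold change was 0.21 ± 0.43 (SE, edgeR adjusted p = 0.763) and turned to -0.28 without aal1-pOE replicate 2.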

How the data were processed

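Members, gene lists and alternatives were chosen with earlier results of these data known. The deposited table holds raw read counts of each gene, which the authors made from 50-base paired reads of rRNA-depleted RNA with STAR 2.6.1a on the PomBase genome and HTSeq 0.12.3, counted by strand. The genome build was not named. Molecular indices were clipped. Whether duplicate reads were collapsed is not stated. Of 6952 genes, 6805 matched RefSeq annotation of assembly ASM294v3, which gave names, coordinates and sequences. All sample columns were used.

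Counts were fitted for all genes with edgeR 4.0.16 (R 4.3.3): 5823 genes that exceeded 1 CPM in 3 or more libraries, TMM, group as the only factor, quasi-likelihood test, Benjamini-Hochberg adjustment, called at adjusted p of at most 0.05. SE is the size of the log2 fold change divided by root F. Members are named in order of sub-complex, with full statistics for called genes, the largest changes and duplicate copies. From each of 6 pathway lists, called genes and the pair with the smallest p are named, and ubi4 was added after its value was seen. Of 43 names searched, 1 had no match, and repeats were counted once. The fit was tested on simulated data. Alternatives used DESeq2 1.42.0, limma-voom (limma 3.58.1), other scalings, filters, a replicate block and libraries left out. Sub-complex medians, sums, spreads and ratios are descriptions without a test. The design listed the ratio of each subunit to its sub-complex median, and the ratios of pairs were added after the values were seen. P-values measure the spread between these 3 cultures a group.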

Additional observations from a re-analysis of the deposited data

How the results depend on the processing

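The numbers of calls depended on the setting. Over all genes 349 were called, and 671 with library totals, 869 with the edgeR likelihood ratio test, 905 with DESeq2 and 2216 without aal1-pOE replicate 2 and evc replicate 1, with 82 to 770 when 1 library was left out. Members were called 2 times, and 6 times with library totals (6 higher, 17.1% against 8.88% of all genes), 1 time with limma-voom, 0 to 7 times with 1 library left out, and 12 times without aal1-pOE replicate 2 and evc replicate 1 (34.3% of members against 39.5% of all genes). The member count was 0 without aal1-pOE replicate 1 or 3 or evc replicate 2 or 3, and 7 without aal1-pOE replicate 2. With library totals the median log2 fold change was 0.81 for members, 0.97 for the core, 0.53 for the base and 0.40 for the lid, beside 0.80 for all tested genes. On that scale the summed level of members in aal1-pOE was 1.48 times that in evc (0.937 times with TMM, 0.880 to 1.03 with 1 library left out). Leaving pus1 or the Rpn5 copies out of the list could not change the 2 calls, because the fit ran over all tested genes.

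No pairing by replicate number was evident, with correlations of deviations of 0.030, 0.015 and 0.0036 for same-numbered libraries. Whether cultures of the same number were handled together is not stated, and these correlations cannot show that they were not. With a replicate block 630 genes were called, 3 of them members, since rpn8 was added (adjusted p = 0.0408, edgeR).

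Signs of uncalled members turned with library totals for pre8 (0.23), pre6 (0.75), pre5 (0.61), pre3 (0.42), pup1 (0.23), rpt1 (0.48), rpt2 (0.27), rpt4 (0.14), rpt6 (0.43), mts4 (0.53), rpn501 (0.16), rpn502 (0.54), rpn9 (0.32) and rpn11 (0.40). For pre6 the value was 0.049 with a filter of 10 CPM and ran from -0.26 to 0.089 with 1 library left out and was -0.32 without aal1-pOE replicate 2 and evc replicate 1. Without aal1-pOE replicate 2 alone, or with evc replicate 1 also left out, the values were 0.12 and 0.060 for rpt1, 0.16 and 0.23 for rpt6, 0.070 and 0.090 for mts4, 0.039 and 0.076 for rpn9 and -0.28 and -0.23 for pus1. With 1 library left out the lowest values were -0.31 for rpt1, -0.33 for rpt6, -0.20 for mts4 and -0.46 for rpn9, and the highest for pus1 was 0.43. The causes were not tested. With 3 libraries a group and these spreads, a change that was not called may still be present.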
